A study of Mus musculus with 20 samples.

Results

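NK cells, sorted as NK1.1+ cells (named NK), were compared with NKT cells, sorted as cells positive for both CD3ε and NK1.1 (named NKT). Each population was measured on 2 arrays from 2 biological replicates, so that the comparison rests on 4 of the 20 arrays of a survey of 10 sorted haematopoietic cell populations of C57BL/6 mice. All groups share this genetic background, and the labels name no allele, transgene or treatment. The other populations used here are Neutrophil (sorted as Gr-1+), Monocyte (sorted as Mac-1+ monocytes/macrophages), CD4T and CD8T, 2 arrays each. The members were chosen by sample title, and genes higher in NK were then divided by whether they were also high in the Neutrophil or Monocyte arrays. The sources used here give neither the tissue, age and sex of the mice nor the number of mice behind a replicate or further gates, and no label states that the NK cells were sorted as negative for CD3ε or for myeloid markers. The RNA of 3000 cells was amplified in 2 cycles for each Affymetrix Mouse Genome 430 2.0 array.

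NK cells are innate lymphocytes that kill infected or transformed cells with granules of perforin and granzymes. They carry no rearranged antigen receptor, and their activity is set by germline-encoded receptors of the Ly49 (Klra), NKG2 (Klrc, Klrk) and NKR-P1 (Klrb1) families. NKT cells are T cells that share NK1.1 and several of these receptors but signal through a T cell receptor joined to the CD3 chains. NK1.1 itself is encoded by Klrb1c, which is not analysed here, as no probe set was annotated with that symbol alone. The same holds for Ly6g, which encodes the neutrophil component recognised by Gr-1 antibodies.

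The deposited values are intensities on a linear scale, with a mean of 100 in each array once the lowest and highest 2% of values are left out. Differences are given as NK minus NKT on a log2(intensity + 6.75) scale, which understates the change of dim genes, and tests come from limma fitted to all 20 arrays. Levels are given as the intensities of replicates 1 and 2, in that order. A gene was called where its Benjamini-Hochberg adjusted p over all 14044 genes tested was under 0.05 and its log2 difference was at least 1 in size. With 2 arrays per population the number of arrays limits the precision. The p-values measure only the spread between replicate arrays, pooled over the 10 populations and partly shared across genes. Because the samples are bulk RNA, fewer cells of a type and less RNA per cell cannot be told apart in any difference below.

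The markers given for each population lay on the labelled side, and the NK arrays held myeloid genes as well. Gzma, which encodes granzyme A, had intensities of 6563 and 6297 in NK, against 215 and 134 in NKT, a log2 difference of 5.19 ± 0.41 (SE; adjusted p = 4.3e-08). Klra8, the activating receptor Ly49H, had 2941 and 3236 in NK, against 68.5 and 39.9 in NKT, a log2 difference of 5.71 ± 0.56 (SE; adjusted p = 5.51e-07). For both genes the NK arrays lay far above the NKT arrays, and neither gene exceeded 22.1 in the Neutrophil or Monocyte arrays. Cd3e, the CD3ε chain used for the sort, had 10.6 and 41.3 in NK, against 503 and 695 in NKT, a log2 difference of -4.38 ± 0.49 (SE; adjusted p = 2.9e-06). Trgv4, a variable segment of the T cell receptor γ chain, had 51.2 and 55.7 in NK, against 1220.0 and 1399 in NKT, a log2 difference of -4.45 ± 0.39 (SE; adjusted p = 1.56e-07). The NK values of Cd3e lay in the range of the Neutrophil and Monocyte arrays or up to a few times above them, with 9.87 and 10.7 in Neutrophil and 16 and 11 in Monocyte. Of the other NK markers, Eomes, a transcription factor of NK cells, was bright in both populations, at 946 and 1018 in NK, against 1135 and 649.6 in NKT, and Ncr1, the receptor NKp46, stood at 585 and 737 in NK, against 212 and 251 in NKT. The label of the NKT arrays was met by the CD3 chains, while Zbtb16 (PLZF), the transcription factor of invariant NKT cells, was at 139 and 206 in NK, against 121 and 138 in NKT and was not called. The NK arrays also held genes of other cells: the summed intensity of 36 monocyte and macrophage markers was 81147 and 69295 in NK, against 7316 and 13762 in NKT. The Monocyte arrays held neutrophil genes, with a sum over 22 neutrophil markers of 131400.0 and 109104, beside 162215 and 138644 in Neutrophil, so the 2 myeloid populations are not separate references.

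**Figure D1:**
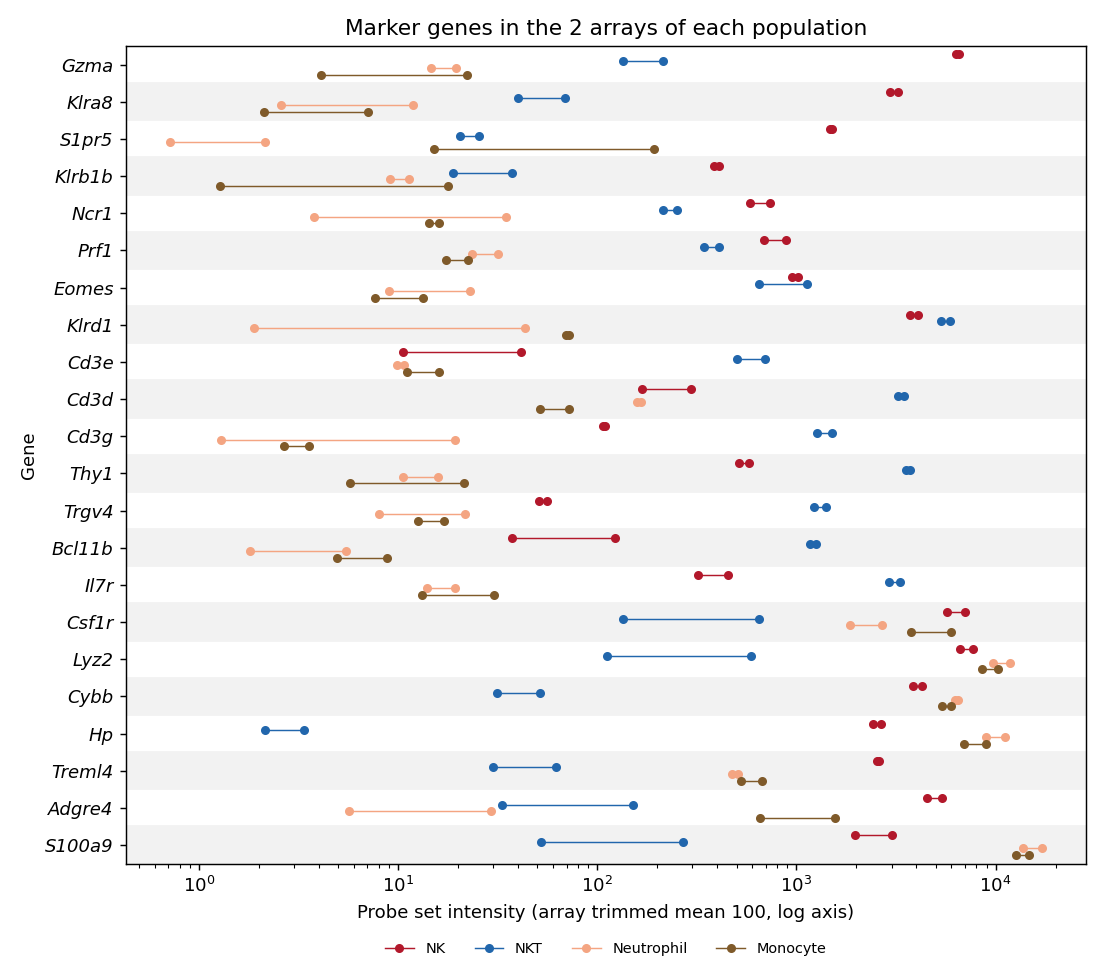
Probe set intensity on a log axis (each array's trimmed mean is 100) of 22 marker genes, with 1 point for each of the 2 arrays of NK, NKT, Neutrophil and Monocyte and a line joining the replicates. Gzma, Klra8, S1pr5 and Klrb1b are highest in NK among these populations, the CD3 genes are high in NKT, and Csf1r, Lyz2, Cybb, Hp and S100a9 are high in NK, Neutrophil and Monocyte and low in NKT.

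The promoter windows of Gzma, Klra8, Cyp4f18, Cd3e, Cd3d and Cd3g are shown as the 250 bases before the annotated start. They are written 5′ to 3′ on the gene's strand, from RefSeq on GRCm38.p6. Hp and Trav9d-3, with the largest differences on their sides, are not shown. Capitals mark the E-box CACCTG and the ETS core GAGGAA on either strand, so that they also read as CAGGTG and TTCCTC, and no marked match overlaps another. E proteins and ETS factors are known regulators in lymphoid and myeloid cells. Gzma and Klra8 are 2 of the 3 genes with the largest differences among the NK genes that are low in Neutrophil and Monocyte, beside S1pr5, Cyp4f18 is high in NK and in Neutrophil, and Cd3e, Cd3d and Cd3g encode the CD3 chains.
Gzma, chr13:113100982-113101231, minus strand: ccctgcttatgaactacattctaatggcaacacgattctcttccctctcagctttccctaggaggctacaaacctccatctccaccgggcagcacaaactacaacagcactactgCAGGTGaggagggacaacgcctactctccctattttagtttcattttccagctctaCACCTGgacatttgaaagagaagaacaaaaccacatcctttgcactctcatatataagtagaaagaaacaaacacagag
Klra8, chr6:130129899-130130148, minus strand: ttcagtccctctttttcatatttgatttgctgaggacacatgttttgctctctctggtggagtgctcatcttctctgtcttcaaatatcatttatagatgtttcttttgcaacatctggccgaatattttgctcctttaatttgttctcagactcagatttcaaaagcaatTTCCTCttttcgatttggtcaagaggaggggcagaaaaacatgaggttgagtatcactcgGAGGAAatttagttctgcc
Cyp4f18, chr8:72009627-72009876, minus strand: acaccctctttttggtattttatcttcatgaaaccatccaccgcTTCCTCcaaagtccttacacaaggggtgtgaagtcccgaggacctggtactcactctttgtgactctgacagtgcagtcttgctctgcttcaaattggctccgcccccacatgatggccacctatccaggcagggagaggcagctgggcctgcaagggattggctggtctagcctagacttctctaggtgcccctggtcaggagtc
Cd3e, chr9:45009612-45009861, minus strand: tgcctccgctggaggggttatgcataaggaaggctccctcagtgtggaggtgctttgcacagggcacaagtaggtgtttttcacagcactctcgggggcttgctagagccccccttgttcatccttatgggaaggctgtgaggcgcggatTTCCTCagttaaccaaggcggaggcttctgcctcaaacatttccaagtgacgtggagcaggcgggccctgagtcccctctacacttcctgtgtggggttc
Cd3d, chr9:44981536-44981785, plus strand: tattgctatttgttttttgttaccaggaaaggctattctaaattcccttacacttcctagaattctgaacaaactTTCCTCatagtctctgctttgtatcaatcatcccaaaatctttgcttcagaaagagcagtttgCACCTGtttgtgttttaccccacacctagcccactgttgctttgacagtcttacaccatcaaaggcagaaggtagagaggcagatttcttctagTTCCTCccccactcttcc
Cd3g, chr9:44980432-44980681, minus strand: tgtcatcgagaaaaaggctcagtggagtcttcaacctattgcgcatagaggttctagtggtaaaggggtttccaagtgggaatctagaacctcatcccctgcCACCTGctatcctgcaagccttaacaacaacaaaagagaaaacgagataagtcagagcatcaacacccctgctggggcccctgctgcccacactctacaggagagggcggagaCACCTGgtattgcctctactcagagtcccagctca
The E-box stood 2 times in Gzma, 2 times in Cd3g, 1 time in Cd3d and in neither Cd3e, Klra8 nor Cyp4f18. The ETS core stood 2 times in Klra8, 2 times in Cd3d and 1 time each in Cyp4f18 and Cd3e. Of the 11281 tested genes with a listed promoter, 16.0% held the E-box and 22.6% the ETS core in this window. Among genes called higher in NKT the shares were 21.3% and 26.4% of 484 promoters. Among genes called higher in NK they were 14.8% and 27.3% of 542 promoters where the gene was also high in Neutrophil or Monocyte, 8.45% and 32.4% of 71 where it was intermediate, and 17.5% and 24.1% of 137 where it was low in both, by the classes defined below. Klra8 has 2 promoters in the table and the first is shown. A match is a description of the letters and no evidence of binding.

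Between NK and NKT 1562 of 14044 genes were called, 11.1% of those tested, with 945 higher in NK (6.73%) and 617 higher in NKT (4.39%). The counts of list members below stand beside these shares. The arrays of NK did not overlap those of NKT for 59.7% of all genes tested, so non-overlap alone says little about a gene. The median log2 difference of all genes was -0.13. Centring each array on its median moved this by 0.129 and changed the split to 1090 higher in NK and 457 higher in NKT (70.5% higher in NK, against 60.5%). Without NK replicate 1, 394 genes were higher in NKT, and 746 were higher in NK. The largest differences were on the NK side: 47 genes were higher in NK by at least 5 on the log2 scale and none was higher in NKT by that much.

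**Figure D2:**
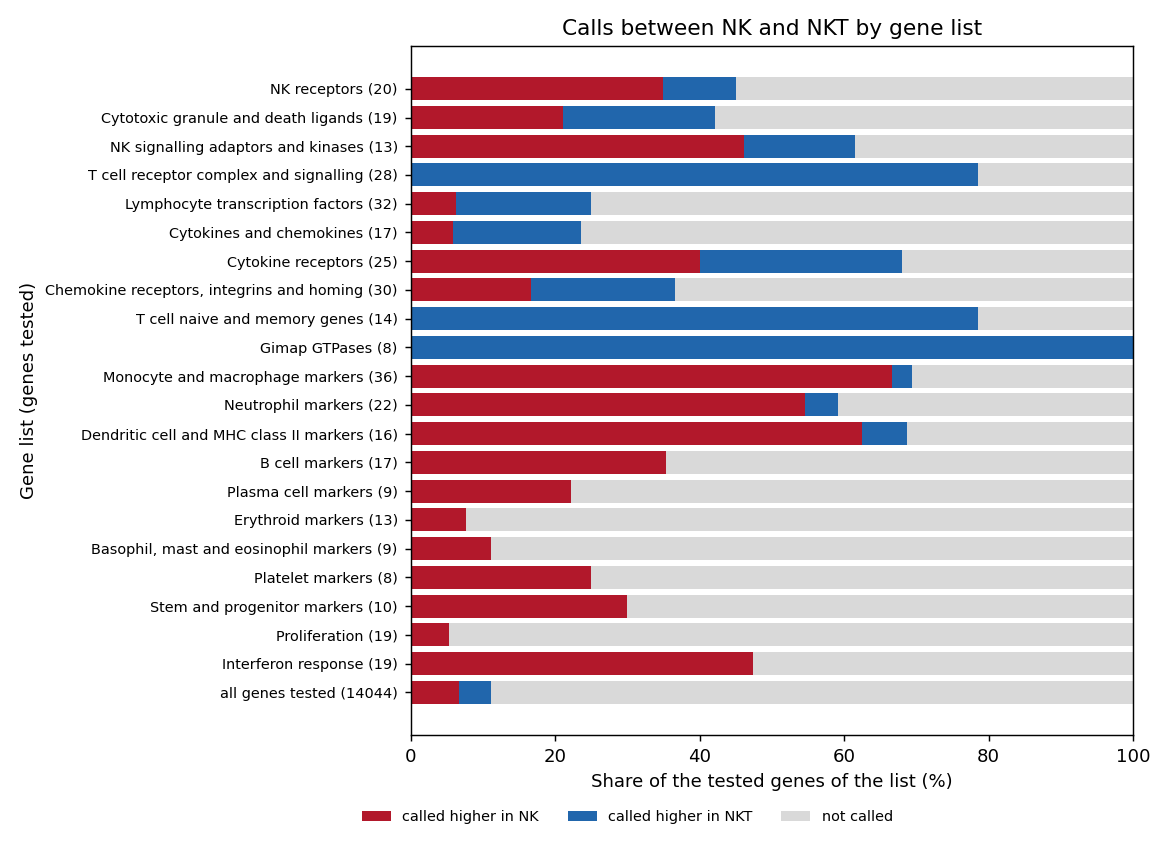
Share (%) of the tested genes of each list called higher in NK, called higher in NKT or not called, with the number of genes tested in parentheses and all 14044 genes in the last bar. All 8 Gimap genes and 22 of 28 T cell receptor genes are called higher in NKT, while 24 of 36 monocyte and macrophage markers are called higher in NK.

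The T cell receptor complex and its signalling genes lay on the NKT side. Of 28 genes tested, 22 were higher in NKT and none was called higher in NK, with a median log2 difference of -2.04. The count stayed between 18 and 19 when any one of the 4 arrays was left out. The CD3 chains carry the signal of the receptor into the cell, and all of them were higher in NKT: Cd3d had 295 and 168 in NK, against 3480.3 and 3252 in NKT, a log2 difference of -3.88 ± 0.33 (SE; adjusted p = 9.14e-08). Cd3g had 107 and 109 in NK, against 1270.0 and 1511 in NKT, a log2 difference of -3.60 ± 0.43 (SE; adjusted p = 6.29e-06). Cd247, the ζ chain that NK cells also use behind their Fc receptors, had 171 and 143 in NK, against 748 and 565 in NKT, a smaller log2 difference of -2.01 ± 0.42 (SE; adjusted p = 0.00199), or -1.145 over the median of its probe sets. The NKT levels of Cd3d were of the size seen in the T cell arrays, which had 3418 and 3151 in CD4T and 3799 and 3541 in CD8T. NK replicate values of Cd3d were above or near those of Neutrophil, at 157 and 165.

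A pair of α chain variable segments was among the largest differences on the NKT side. Trav9d-3 had 73.2 and 75.1 in NK, against 2197 and 2226 in NKT, a log2 difference of -4.78 ± 0.28 (SE; adjusted p = 9.42e-10), and the T cell arrays held 2944 and 2642 in CD4T and 2739 and 3137 in CD8T. Trav12n-2 had 19.4 and 23.7 in NK, against 577 and 422 in NKT, a log2 difference of -4.15 ± 0.36 (SE; adjusted p = 1.06e-07). The variable segments of a family are alike in sequence, so the member that gave the signal is uncertain, and the names of the Trav9d-3 and Trgv4 probe sets mark possible cross-hybridisation. Trgv4 differed from the α segments in its level in T cells, with 275 and 196 in CD4T and 129.6 and 287 in CD8T, well below the NKT values.

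Cd5, Cd28, Icos and Thy1 were among the 22 higher in NKT. Cd5, an inhibitor of receptor signalling, had 17.1 and 23 in NK, against 428 and 554 in NKT, a log2 difference of -4.21 ± 0.36 (SE; adjusted p = 8.98e-08), and was brighter still in CD4T, at 2425 and 1867. Cd28, the main costimulatory receptor, had 129.7 and 178 in NK, against 718 and 782 in NKT, a log2 difference of -2.25 (adjusted p = 0.000851). Icos, its relative, had 89.8 and 116 in NK, against 656 and 630.4 in NKT, a log2 difference of -2.58 (adjusted p = 5.27e-05). Thy1, carried by T cells and by part of the NK cells, had 515 and 575 in NK, against 3694 and 3533 in NKT: it was high in NKT yet clearly present in NK, as Neutrophil and Monocyte stayed at or below 21.4. Downstream of the receptor, the adaptor Lat (-2.24), the kinase gene Camk4 (-3.69), the kinase gene Prkcq (-1.82) and the adhesion receptor Cd2 (-1.77) were all higher in NKT on the log2 scale. The Camk4 value is that of its brightest probe set. Its other probe sets gave -1.43, -1.32 and -0.52, and over the median of its probe sets the difference was -1.028 (adjusted p = 0.0736) and the call was lost. Plcg1, the phospholipase of T cells, had 56 and 30.8 in NK, against 667 and 553 in NKT on the brightest probe set, a log2 difference of -3.66 (adjusted p = 6.41e-06), while another probe set of the gene gave 0.58. Members that were not called included the kinase Zap70, at 187 and 146 in NK, against 119.9 and 132 in NKT, the adaptor Lcp2 (SLP-76), at 918 and 1023 in NK, against 936 and 943 in NKT, and the coreceptor Cd4, at 3.99 and 11.7 in NK, against 7.26 and 44.6 in NKT; the first 2 of these serve NK receptors as well. Over the median of its probe sets Zap70 had a log2 difference of -1.64 (adjusted p = 0.000527), so its brightest probe set did not speak for the others.

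Genes of naive and memory T cells were also on the NKT side, with 11 of 14 tested higher in NKT, none called higher in NK and a median log2 difference of -1.65. Il7r, the receptor for the survival cytokine IL-7, had 319 and 455 in NK, against 3304 and 2909.7 in NKT, a log2 difference of -3.003 ± 0.40 (SE; adjusted p = 2.41e-05). Ccr7, the receptor that guides naive cells to lymph nodes, had 4.75 and 3.35 in NK, against 76.2 and 82.4 in NKT, a log2 difference of -2.998 ± 0.44 (SE; adjusted p = 6.59e-05). Its NKT values were a small part of those in T cells, at 412 and 939 in CD4T and 1824 and 1125 in CD8T. Lef1, a transcription factor of naive T cells, had 59.2 and 79.8 in NK, against 288 and 273 in NKT, a log2 difference of -1.93 (adjusted p = 0.000382), and Cd27, a costimulatory receptor, had 155 and 193 in NK, against 549 and 515 in NKT, a log2 difference of -1.58 (adjusted p = 0.00821). The call of Cd27 was lost without NK replicate 1 or NKT replicate 1 (adjusted p up to 0.0818). The list overlaps with others, as Cd28, Lef1, Il7r, Ccr7, Il2rb and S1pr1 stand in more than 1 of them.

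All 8 Gimap genes, GTPases that support lymphocyte survival, were called higher in NKT, with a median log2 difference of -1.38. Gimap4 was the brightest, at 3871 and 3892 in NK, against 8048 and 7618 in NKT, a log2 difference of -1.01 ± 0.23 (SE; adjusted p = 0.00381). Gimap3 had 303 and 365 in NK, against 1201 and 1024 in NKT, a log2 difference of -1.72 ± 0.30 (SE; adjusted p = 0.000419). The differences were alike in size, from -1.01 to -1.72, and the genes lie in 1 chromosomal cluster and are related in sequence, so they are not independent observations. The summed intensity of the list was 7511 and 7850.2 in NK and 19230.1 and 17918 in NKT, with 141 and 159 in Neutrophil and 129 and 122 in Monocyte. With limma's treat, which tests against a log2 difference of 1, none of the 8 was called. Gimap4 lost its call without NKT replicate 1 (log2 difference -0.97), under quantile normalization (-0.627; adjusted p = 0.0748) and under array median centring (-0.884), which left 7 of the 8 called.

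NK receptors did not form 1 group. Of 20 tested, 7 were higher in NK, 2 were higher in NKT and 11 were not called, and the median log2 difference was 0.26. The summed intensity of the list was 17665 and 19037 in NK and 17274 and 16777 in NKT, a sum that the brightest genes dominate. The mean log2 level over the 20 genes, which weights them equally, was 8.606 and 8.638 in NK and 7.795 and 7.737 in NKT. Of the 7 higher in NK, only Klra8, Klrb1b and Klrg1 were low in Neutrophil and Monocyte by the rule given below. Klrb1b, the inhibitory receptor NKR-P1B, had 407 and 386 in NK, against 18.8 and 37.3 in NKT, a log2 difference of 3.59 ± 0.53 (SE; adjusted p = 7.42e-05). Klrg1, an inhibitory receptor of mature NK and effector T cells, had 198 and 273 in NK, against 89.6 and 93 in NKT, a log2 difference of 1.29 ± 0.34 (SE; adjusted p = 0.0126), and its call was lost without NK replicate 2, NKT replicate 1 or NKT replicate 2 (adjusted p up to 0.136). The other 4 were also high in the myeloid arrays, as were 71.9% of all genes called higher in NK. They were the Fc receptors Fcgr3 and Fcgr4 and the Ly49 genes Klra2 and Klra17. Their place in the list does not make them particular to NK cells. Fcgr3 had 1076 and 885 in NK, against 79.4 and 149 in NKT, a log2 difference of 3.09 ± 0.39 (SE; adjusted p = 1.17e-05), beside 3366 and 2491 in Neutrophil and 1389 and 1236 in Monocyte. Klra17 had 145 and 85.1 in NK, against 24.9 and 11.6 in NKT, a log2 difference of 2.29 ± 0.42 (SE; adjusted p = 0.000625), beside 986 and 734 in Neutrophil and 192 and 115 in Monocyte. The probe sets of Klra8 and Klrb1b are of the kind that can bind related family members.

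The shared receptors of both populations were bright and were not called. Klrd1, the CD94 partner of NKG2 receptors, had 3734 and 4079 in NK, against 5310.0 and 5880.1 in NKT, a log2 difference of -0.52 (95% interval -1.49 to 0.46; adjusted p = 0.522). Klrk1, the activating receptor NKG2D, had 847 and 766 in NK, against 1596 and 1469 in NKT, a log2 difference of -0.92 (95% interval -1.72 to -0.12; adjusted p = 0.114). Klrc1, the inhibitory receptor NKG2A, had 1076 and 1303 in NK, against 1864 and 1972 in NKT, a log2 difference of -0.69 (95% interval -1.49 to 0.10; adjusted p = 0.251). In all 3 genes the NK arrays lay below the NKT arrays, and the intervals reach from a clear excess in NKT to about no difference or a small excess in NK. Ncr1 pointed the other way, with a log2 difference of 1.48 (95% interval 0.43 to 2.53; adjusted p = 0.0507), just above the 0.05 threshold of the call. It was called under 7 of the 17 alternative settings (adjusted p from 0.000458 to 0.0493). The 2 receptors higher in NKT were Cd160, at 269 and 209 in NK, against 821 and 797 in NKT, a log2 difference of -1.74 ± 0.31 (SE; adjusted p = 0.000462), and Cd226 (DNAM-1), at 17.1 and 14.7 in NK, against 55 and 69.9 in NKT, a log2 difference of -1.61 ± 0.53 (SE; adjusted p = 0.046). The call of Cd226 was lost without any 1 of the 4 arrays (adjusted p up to 0.196).

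Behind the receptors, 6 of 13 signalling adaptors and kinases were higher in NK, 2 were higher in NKT, and the median log2 difference was 0.97. All 6 higher in NK were high in the myeloid arrays as well, as were 71.9% of all genes called higher in NK. Tyrobp, the adaptor DAP12 of NK and myeloid receptors, had 5894 and 4850.1 in NK, against 1779 and 1574 in NKT, a log2 difference of 1.67 ± 0.44 (SE; adjusted p = 0.0122), beside 10180.0 and 8168 in Neutrophil and 5967 and 5275 in Monocyte. This call was lost without NK replicate 1, NKT replicate 1 or NKT replicate 2 (adjusted p up to 0.0984). Syk, a kinase recruited by such adaptors, had 1039 and 1065 in NK, against 77.3 and 117 in NKT, a log2 difference of 3.37 ± 0.57 (SE; adjusted p = 0.000273), beside 1224 and 1457 in Neutrophil and 1392 and 1073 in Monocyte. Plcg2, the phospholipase of NK, B and myeloid cells, had 1603 and 1510.2 in NK, against 235 and 259 in NKT, a log2 difference of 2.63 ± 0.33 (SE; adjusted p = 9.82e-06). Fcer1g, Fgr and Ptpn6 were the others. Hcst, the adaptor DAP10 of NKG2D, went the other way, at 368 and 389 in NK, against 1173 and 959.7 in NKT, a log2 difference of -1.47 ± 0.22 (SE; adjusted p = 7.51e-05), and Sh2d1a (SAP), which is needed for NKT cell development, had 95.7 and 154 in NK, against 316 and 274 in NKT, a log2 difference of -1.23 (adjusted p = 0.0407). For Sh2d1a the call was lost without any 1 of the 4 arrays (adjusted p up to 0.311).

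The cytotoxic machinery was split. Of 19 genes tested, 4 were higher in NK and 4 were higher in NKT, and the median log2 difference was -0.06. Leaving out any one array lowered these to between 2 and 3 higher in NK and between 1 and 2 higher in NKT, so the smaller calls rest on all 4 arrays. Gzma stood apart as the gene with the largest difference in the list. Prf1, perforin, had 690.4 and 889.7 in NK, against 343 and 410.2 in NKT on the brightest probe set, a log2 difference of 1.05 ± 0.32 (SE; adjusted p = 0.0284), while another of its probe sets gave -0.67 and the median of the probe sets gave 0.19 (adjusted p = 0.735). The call of Prf1 was lost without any 1 of the 4 arrays (adjusted p up to 0.211). Gzmb, granzyme B, had 574 and 688 in NK, against 295 and 173 in NKT, a log2 difference of 1.45 (95% interval 0.37 to 2.53; adjusted p = 0.0643), and was not called. It was called with a pseudocount at the median (adjusted p = 0.00593) and in a fit of the NK and NKT arrays only (adjusted p = 0.00305). Stx11 and Lamp1, which take part in granule release, were higher in NK and also high in the myeloid arrays, and Lamp1 lost its call without NK replicate 1 or NKT replicate 1 (log2 difference 0.92 and 0.94). The 4 higher in NKT were Ctsw, Cst7, Gzmm and Tnfsf10. Ctsw, a cathepsin of cytotoxic lymphocytes, had 2196 and 2124 in NK, against 4278 and 4501 in NKT, a log2 difference of -1.02 ± 0.21 (SE; adjusted p = 0.00189). Calls were lost for Ctsw without NK replicate 2 or NKT replicate 2 (log2 difference -0.996 and -0.98), for Cst7 without any 1 of the 4 arrays (adjusted p up to 0.108) and for Gzmm without any 1 of the 4 arrays (adjusted p up to 0.11). Tnfsf10, the death ligand TRAIL, had 83.4 and 84.6 in NK, against 316 and 348 in NKT, a log2 difference of -1.90 ± 0.39 (SE; adjusted p = 0.0017). Nkg7, a granule protein, was bright in both, at 3014 and 2820.0 in NK, against 4693 and 3829 in NKT, and was not called.

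Of 32 lymphocyte transcription factors tested, 2 were higher in NK, 6 were higher in NKT and 24 were not called. The median log2 difference was -0.54. Over all genes tested, 6.73% were higher in NK and 4.39% were higher in NKT, so the 2 higher in NK were near the share of all genes. Bcl11b, which maintains T cell identity, had 37.3 and 123 in NK, against 1246 and 1169 in NKT, a log2 difference of -4.004 ± 0.41 (SE; adjusted p = 9.06e-07). Ikzf2 (Helios) had 132 and 198 in NK, against 2471 and 1884 in NKT, a log2 difference of -3.68 ± 0.38 (SE; adjusted p = 1.15e-06). Satb1 (-1.40), Stat4 (-1.34), Lef1 and Gata3 (-1.28) were the others higher in NKT, and Gata3 lost its call without NK replicate 1, NKT replicate 1 or NKT replicate 2 (adjusted p up to 0.19). Zeb2, a factor of mature NK cells and of monocytes, had 1749 and 1517 in NK, against 21.5 and 83.4 in NKT, a log2 difference of 5.02 ± 0.52 (SE; adjusted p = 1.09e-06), or 3.324 over the median of its probe sets, beside 162 and 91.7 in Neutrophil and 251 and 942 in Monocyte. Irf8, a factor of monocytes, dendritic cells and NK cells, had 1625 and 1416 in NK, against 311 and 340.5 in NKT, a log2 difference of 2.20 ± 0.45 (SE; adjusted p = 0.00195), beside 63 and 68.4 in Neutrophil and 165 and 468 in Monocyte. Tbx21 (T-bet), which drives effector genes in both populations, had 637 and 598 in NK, against 1088 and 1360.1 in NKT, a log2 difference of -0.97 (95% interval -2.21 to 0.27; adjusted p = 0.309), and Eomes had a log2 difference of 0.19 (95% interval -0.57 to 0.95; adjusted p = 0.79).

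Cytokines and their receptors were called in both directions. Of 17 cytokines and chemokines tested, 1 was higher in NK and 3 were higher in NKT, against 6.73% and 4.39% of all genes tested. The 1 higher in NK is near the share of all genes. Under 100 in both NK and NKT were 8 of the 17, and 6972 of all 14044 genes. Csf2 (GM-CSF) had 6.74 and 7.81 in NK, against 124 and 94.7 in NKT, a log2 difference of -3.04 ± 0.39 (SE; adjusted p = 1.26e-05), and T cells were at 16.5 and 21.5 in CD4T and 3.32 and 6.5 in CD8T, so NKT was the highest of these groups. Ltb, lymphotoxin β, had 683 and 598 in NK, against 2527 and 2156 in NKT, a log2 difference of -1.86 ± 0.33 (SE; adjusted p = 0.000481), and Il2 was the third, a call lost without NKT replicate 2 (adjusted p = 0.065). Il1b, the inflammatory cytokine of myeloid cells, had 778 and 889.9 in NK, against 24.8 and 16.6 in NKT, a log2 difference of 4.95 ± 0.41 (SE; adjusted p = 7.28e-08), beside 2278 and 1805 in Neutrophil and 743 and 465 in Monocyte. Ifng, at 108 and 209.7 in NK, against 160.4 and 262 in NKT, Xcl1, at 791 and 755 in NK, against 1203 and 1074 in NKT, and Ccl5, at 5089.7 and 4458 in NK, against 8523 and 7395 in NKT, were not called.

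Of 25 cytokine receptors tested, 10 were higher in NK and 7 were higher in NKT. The 7 became 4 to 5 when 1 array was left out. Il2rb, the β chain for IL-2 and IL-15, had 335 and 400.2 in NK, against 1032 and 985 in NKT, a log2 difference of -1.44 ± 0.39 (SE; adjusted p = 0.0137), and this call was lost without any 1 of the 4 arrays (adjusted p up to 0.114). Il18r1 had 872 and 1217 in NK, against 2782 and 2147 in NKT, a log2 difference of -1.24 ± 0.32 (SE; adjusted p = 0.0107). Il7r, Il21r, Il27ra, Il17rb and Il4ra completed the 7, although a further probe set of Il4ra gave 0.37. Calls were lost for Il18r1 without NK replicate 1 or NKT replicate 1 (adjusted p up to 0.135), for Il21r without NK replicate 1 (adjusted p = 0.0505) and for Il17rb without NK replicate 1, NK replicate 2 or NKT replicate 2 (adjusted p up to 0.178). On the NK side 8 of the 10 were also high in the myeloid arrays, among them the receptors of the colony-stimulating factors. That share was near the 71.9% of all genes called higher in NK. Csf1r, the receptor on which monocytes and macrophages depend, had 7004 and 5725 in NK, against 135 and 647 in NKT, a log2 difference of 4.38 ± 0.53 (SE; adjusted p = 7.02e-06), beside 2702 and 1854 in Neutrophil and 3737 and 5948 in Monocyte. Csf3r, the G-CSF receptor of neutrophils, had 624 and 462 in NK, against 3.56 and 42.1 in NKT, a log2 difference of 4.60 ± 0.54 (SE; adjusted p = 4.68e-06), beside 3511 and 2723 in Neutrophil and 1401 and 993 in Monocyte. Csf2ra and Csf2rb had log2 differences of 4.45 and 4.39. Tgfbr3, betaglycan, had 872 and 1153 in NK, against 6.53 and 3.69 in NKT, a log2 difference of 6.42 ± 0.53 (SE; adjusted p = 6.84e-08), or 3.241 over the median of its probe sets, with 9.01 and 44.7 in Neutrophil and 38.6 and 147 in Monocyte. Il10ra, the IL-10 receptor chain, had 669 and 667 in NK, against 145 and 114 in NKT, a log2 difference of 2.32 ± 0.42 (SE; adjusted p = 0.000533), and was the 1 called higher in NK that was low in the myeloid arrays. That call rests on 1 probe set: another gave a log2 difference of 0.10, and the median of the probe sets gave 0.096 (adjusted p = 0.948).

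Homing genes gave 5 of 30 higher in NK and 6 of 30 higher in NKT. S1pr5, the sphingosine-phosphate receptor that lets NK cells leave marrow and lymph nodes, had 1465 and 1514 in NK, against 25.4 and 20.5 in NKT, a log2 difference of 5.66 ± 0.64 (SE; adjusted p = 2.75e-06). Its Neutrophil arrays were at 2.13 and 0.714 and its Monocyte arrays at 15.1 and 192, so that Monocyte replicate 2 alone of these 4 held a clear signal. Cx3cr1, the fractalkine receptor of mature NK cells and patrolling monocytes, had 1860.3 and 2188 in NK, against 26.8 and 47.4 in NKT, a log2 difference of 5.57 ± 0.53 (SE; adjusted p = 3.46e-07), or 3.66 over the median of its probe sets, with 19.7 and 39.5 in Neutrophil and 259 and 639 in Monocyte. Ccr2 had 2905 and 2665 in NK, against 702 and 898 in NKT, a log2 difference of 1.80 (adjusted p = 0.00899). Itgax (CD11c) had 1145 and 876 in NK, against 202 and 160.4 in NKT, a log2 difference of 2.43 (adjusted p = 1.05e-05). The call of Ccr2 was lost without NK replicate 1 or NKT replicate 1 (adjusted p up to 0.0849). Itgam, the α chain of the Mac-1 antigen used to sort the Monocyte arrays and also found on mature NK cells, had 131 and 100.4 in NK, against 7.48 and 9.3 in NKT, a log2 difference of 3.01 ± 0.56 (SE; adjusted p = 0.000714), beside 814 and 720.1 in Neutrophil and 506 and 405 in Monocyte. On the NKT side Cxcr6, a receptor of liver NKT cells, had 118 and 78.4 in NK, against 877 and 1336 in NKT, a log2 difference of -3.40 ± 0.45 (SE; adjusted p = 2.15e-05). Cxcr3 had 1718 and 1519 in NK, against 5619 and 5494 in NKT, a log2 difference of -1.78 ± 0.26 (SE; adjusted p = 5.5e-05). Cd69, a marker of activation and tissue retention, had 147 and 91.2 in NK, against 795 and 841 in NKT, a log2 difference of -2.75 (adjusted p = 0.0112). Ccr7, Ccr9 and S1pr1 were the others. Calls were lost for Cd69 without NK replicate 2, NKT replicate 1 or NKT replicate 2 (adjusted p up to 0.0988), for Ccr9 without NKT replicate 2 (adjusted p = 0.0851) and for S1pr1 without NK replicate 1 (adjusted p = 0.0626). The call of Ccr9 was also lost over the median of its probe sets (-0.264; adjusted p = 0.786) and without probe sets whose names end in _x_at or _s_at (-0.479; adjusted p = 0.647). One of its other probe sets gave 0.31.

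Genes higher in NK were divided by their level in the Neutrophil and Monocyte arrays. A gene was myeloid-high where the higher of these 2 means was no more than 1 below the NK mean on the log2 scale, myeloid-low where it lay further below and neither population was called above NKT, and intermediate otherwise. By the same rule of calling, Neutrophil was above NKT for 13.3% and Monocyte for 12.5% of all genes tested, and above NK for 10.7% and 8.41%. Of the 945 genes, 679 were myeloid-high (71.9%), 90 were intermediate (9.52%) and 176 were myeloid-low (18.6%). The level condition for myeloid-high was met by 89.5% of all genes tested, so nothing is read from the 71.9%. At the border, Cst3 was just inside, with log2 levels of 12.66 in NK and 11.66 in the higher myeloid population, and Prcp was just outside, with 7.94 and 6.94. With a margin of 0 in place of 1, 447 of the 945 were myeloid-high.

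A further contrast, added after the data had been seen, was read for the same genes. Its means used no NK or NKT array, but its variances came from the same fit as the NK and NKT comparison. NKT correlated with CD4T at 0.921 to 0.935 and with CD8T at 0.925 to 0.948. Genes low or high in NKT thus tend to be so in T cells, and nothing is read from this contrast's shares against all genes. Calls above T cells counted either myeloid population, while calls of T cells above them used the myeloid mean. Neutrophil or Monocyte was called above the mean of CD4T and CD8T for 17.9% of all genes tested, for 73.7% of the genes higher in NK (696 of 945) and for 6.97% of those higher in NKT. In the other direction, the mean of CD4T and CD8T was called above the mean of Neutrophil and Monocyte for 19.4% of all genes tested, for 67.7% of the genes higher in NKT (418 of 617) and for 3.92% of those higher in NK. Among the 47 genes higher in NK by at least 5 on the log2 scale, 22 were myeloid-high, 22 were intermediate and 3 were myeloid-low, the last being Klra8, S1pr5 and Gzma.

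**Figure D3:**
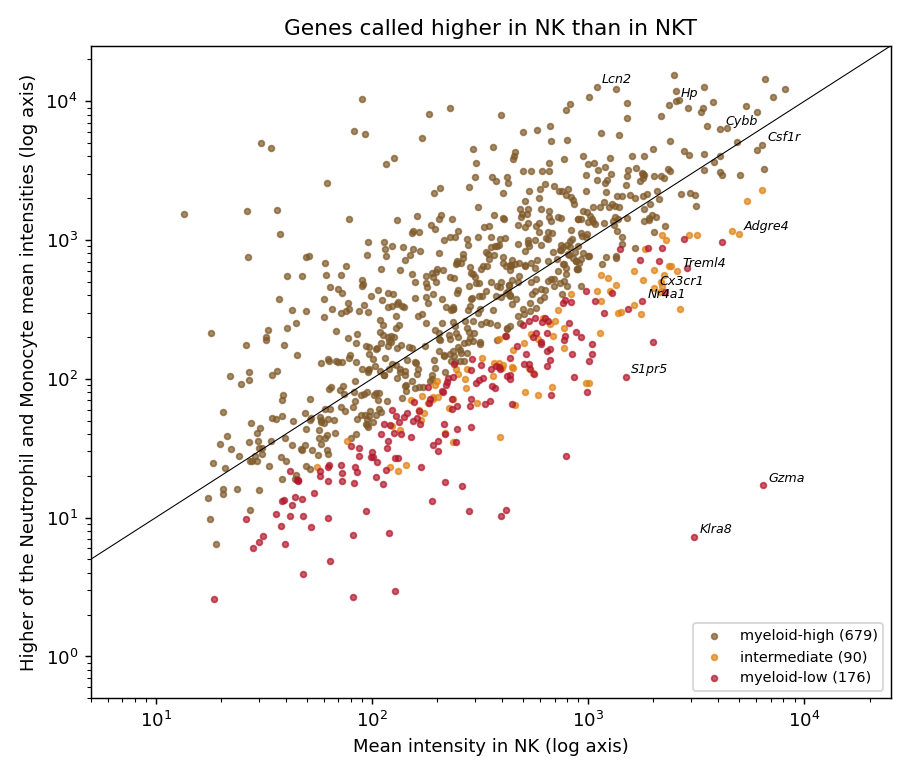
Mean intensity in NK (horizontal, log axis) against the higher of the Neutrophil and Monocyte mean intensities (vertical, log axis) for the 945 genes called higher in NK than in NKT, with 1 point per gene coloured by class and a line of equal level. Gzma and Klra8 lie far below the line, Hp and Lcn2 lie above it, and Adgre4, Treml4 and Cx3cr1 lie below it among the intermediate genes.

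Hp and Cyp4f18, both myeloid-high, had the largest differences of the comparison. The median log2 difference was 1.91 over the 679 myeloid-high genes, 4.17 over the 90 intermediate genes and 1.95 over the 176 myeloid-low genes. By rule an intermediate gene differs by more than 2 between NK and NKT, so nothing is read from the larger median of that class. Hp, the haemoglobin-binding protein haptoglobin, had 2657 and 2422 in NK, against 2.15 and 3.38 in NKT, a log2 difference of 8.07 ± 0.42 (SE; adjusted p = 3.34e-10). Its NKT values were near the bottom of the scale, and its level was 11084 and 8984 in Neutrophil and 8897 and 6957 in Monocyte. Cyp4f18, a cytochrome P450 that breaks down leukotriene B4, had 1426 and 1183 in NK, against 1.46 and 2.69 in NKT, a log2 difference of 7.21 ± 0.52 (SE; adjusted p = 1.17e-08), or 3.473 over the median of its probe sets, with 1714 and 1016 in Neutrophil and 274 and 426 in Monocyte. Cybb, the catalytic chain of the phagocyte oxidase, had 3861 and 4265 in NK, against 31.3 and 51.3 in NKT, a log2 difference of 6.44 ± 0.46 (SE; adjusted p = 9.31e-09), with 6444 and 6254 in Neutrophil and 5937 and 5387 in Monocyte. Napsa, an aspartic protease, had 2421 and 2125 in NK, against 37.7 and 11 in NKT, a log2 difference of 6.34 ± 0.43 (SE; adjusted p = 5.48e-09). Napsa was highest in the B cell arrays, at 2494 and 2467, and Cyp4f18 stood at 794 and 688 there. Tlr13, a sensor of bacterial ribosomal RNA, had 987 and 808 in NK, against 8.87 and 6.63 in NKT, a log2 difference of 5.96 ± 0.42 (SE; adjusted p = 7.6e-09). The antiviral membrane proteins Ifitm2, Ifitm3 and Ifitm6 were higher by 6.42, 5.99 and 5.82, and Ifitm3 had 6525 and 5520.1 in NK, against 78.3 and 98.1 in NKT, with 8717 and 7901 in Neutrophil and 6395 and 5901 in Monocyte. Sirpb1a, Pla2g7, Igsf6 and Chil3 completed the 12 largest of the class. For Chil3, a chitinase-like protein of myeloid cells, NK had 2905 and 2370.2, against unequal NKT replicates of 1.15 and 165, and the call was lost without NKT replicate 1 (adjusted p = 0.0732).

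By definition, intermediate genes were called above NKT in Neutrophil or Monocyte and lay more than 1 higher still in NK on the log2 scale. NK was the highest of all 10 populations for 71 of the 90. The rule had already placed NK above NKT, Neutrophil and Monocyte for all of them. Nxpe4 had 1532 and 1734 in NK, against 0.667 and 12.3 in NKT, a log2 difference of 7.10 ± 0.46 (SE; adjusted p = 3.38e-09), with 14.1 and 7.69 in Neutrophil and 174 and 511 in Monocyte. Apoc2, an apolipoprotein that activates lipoprotein lipase, had 2230.2 and 2143 in NK, against 4.39 and 25.4 in NKT, a log2 difference of 6.86 ± 0.61 (SE; adjusted p = 1.55e-07). Clec4a3, a C-type lectin of myeloid cells, had 5001 and 4292 in NK, against 15.1 and 95.8 in NKT, a log2 difference of 6.61 ± 0.70 (SE; adjusted p = 1.29e-06), with 144 and 66.5 in Neutrophil and 595 and 1712 in Monocyte. Adgre4, an adhesion receptor of the F4/80 family, had 5378 and 4541 in NK, against 33.1 and 151 in NKT, a log2 difference of 5.96 ± 0.79 (SE; adjusted p = 2.11e-05), with 29.3 and 5.63 in Neutrophil and 653 and 1553 in Monocyte. Treml4, a receptor of myeloid cells, had 2548 and 2605 in NK, against 29.8 and 62.1 in NKT, a log2 difference of 5.69 ± 0.43 (SE; adjusted p = 1.89e-08), with 474 and 509.5 in Neutrophil and 529 and 667 in Monocyte. In mouse blood, Treml4, Adgre4, Cx3cr1, Cd36, Ace and Nr4a1 are known for high levels in nonclassical (patrolling) monocytes.

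Myeloid-low genes included the markers of NK cells and genes with other known homes. NK was the highest of the 10 populations for 110 of the 176, against 4.81% of all genes tested. By rule these genes are higher in NK than in NKT, Neutrophil and Monocyte, so nothing is read from the larger share. The 12 largest were Klra8, S1pr5, Gzma, Fabp4, Vegfc, Iglv1, Nr4a1, Eno3, Haao, Dusp16, Klrb1b and Il31ra. Fabp4, a fatty acid carrier of macrophages, fat and endothelium, had 883 and 1197 in NK, against 13.1 and 109.9 in NKT, a log2 difference of 4.43 ± 0.71 (SE; adjusted p = 0.000174), with 6.3 and 12.4 in Neutrophil and 43.6 and 258 in Monocyte. Nr4a1, a nuclear receptor induced by stimulation and needed by nonclassical monocytes, had 1679 and 1883 in NK, against 109.8 and 79.8 in NKT, a log2 difference of 4.15 ± 1.04 (SE; adjusted p = 0.00867), with 123 and 149.5 in Neutrophil and 133 and 593 in Monocyte. The call of Nr4a1 was lost without NK replicate 1, NK replicate 2 or NKT replicate 2 (adjusted p up to 0.0638). Vegfc, a growth factor for lymphatic vessels, had 276 and 286 in NK, against 6.78 and 9.79 in NKT, a log2 difference of 4.27 ± 0.40 (SE; adjusted p = 3.28e-07). Iglv1, an immunoglobulin λ segment, had 769.5 and 64.4 in NK, against 4.3 and 6.96 in NKT, so that its mean rests on NK replicate 1, and without probe sets whose names end in _x_at or _s_at its log2 difference was 0.021 (adjusted p = 0.986). The Monocyte replicates differed for this class: replicate 2 was above replicate 1 for 84.7% of the 176 genes and for 87.8% of the 90 intermediate genes, against 51.5% of all genes tested. The class describes these 4 myeloid arrays only, and 2 monocyte markers, 3 dendritic cell or MHC class II markers and 5 B cell markers of the lists fell in this class.

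Markers of other cell types were counted in full. Of 36 monocyte and macrophage markers tested, 24 were higher in NK, 1 was higher in NKT, and the median log2 difference was 2.63. Lyz2, lysozyme, had 7713 and 6596 in NK, against 111 and 589 in NKT, a log2 difference of 4.75 ± 0.76 (SE; adjusted p = 0.000171), with 11811 and 9711 in Neutrophil and 10329 and 8516 in Monocyte. Mpeg1, a pore-forming protein of macrophages, had 4336 and 3776 in NK, against 62.3 and 410.0 in NKT, a log2 difference of 4.58 ± 0.59 (SE; adjusted p = 1.31e-05). Cd68 had 2255 and 1771 in NK, against 63 and 219 in NKT, a log2 difference of 3.997 ± 0.44 (SE; adjusted p = 2.22e-06). Adgre1 (F4/80) had 1481 and 1368 in NK, against 75.4 and 188 in NKT, a log2 difference of 3.50 ± 0.37 (SE; adjusted p = 1.17e-06). The summed intensity of the list was 81147 and 69295 in NK and 7316 and 13762 in NKT, with 53861 and 64749.6 in Monocyte and 5823 and 5346 in CD4T. Of the 36 tested, none was at 0 in NK, where the lowest was Vcan, at 28.5 and 20.6. The list's other 2 genes on the array did not pass the filter on low values. Marco, a scavenger receptor of tissue macrophages, was at 3.30 and 0.684 in NK, against 12.5 and 4.44 in NKT. Timd4, a phosphatidylserine receptor of resident macrophages, was at 2.19 and 9.34 in NK, against 1.94 and 10.3 in NKT. Both were near background in NK and also in Monocyte, with Marco at 1.20 and 2.43 and Timd4 at 3.63 and 0.933. As neither passed the filter in any population, nothing is read from their low NK level. The markers' part in the genes higher in NK was not tested.

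Among neutrophil markers 12 of 22 were higher in NK, 1 was higher in NKT, and the median log2 difference was 2.08. S100a8 had 7400.4 and 5739.8 in NK, against 148 and 998 in NKT, a log2 difference of 4.05 (adjusted p = 0.0162), and its call was lost without NK replicate 1, NK replicate 2 or NKT replicate 1 (adjusted p up to 0.222). S100a9, its partner, had 3025 and 1977 in NK, against 52.3 and 270.2 in NKT, a log2 difference of 4.26 (adjusted p = 0.00315), and lost its call without NKT replicate 1 (adjusted p = 0.0789). Ngp, a granule protein, had 3813 and 3034 in NK, against 24.3 and 437 in NKT, a log2 difference of 4.86 (adjusted p = 0.00102), and Camp, the antimicrobial peptide cathelicidin, had 1437 and 1256 in NK, against 4.35 and 123 in NKT, a log2 difference of 5.15 (adjusted p = 0.00103). The summed intensity was 25417 and 20161 in NK and 763 and 2999 in NKT, with 162215 and 138644 in Neutrophil. Cxcr2, the chemokine receptor of mature neutrophils, was near background in both, at 3.28 and 1.85 in NK, against 4.01 and 7.75 in NKT, beside 1659 and 1298 in Neutrophil and 599 and 298 in Monocyte. The gene for the granule protease Elane was at 31.6 and 17.9 in NK, against 18.7 and 33.1 in NKT, beside 2797 and 2553 in Monocyte. Mmp9, a metalloprotease stored in neutrophil granules, was the marker higher in NKT, at 64.8 and 77.7 in NK, against 209 and 353 in NKT, a log2 difference of -1.84 ± 0.44 (SE; adjusted p = 0.00627), a call lost without NK replicate 1 or NKT replicate 2 (adjusted p up to 0.0937). The part of neutrophil RNA in the genes higher in NK was not tested.

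The NK level as a share of the Monocyte level was not one constant across these markers. Over 7 neutrophil granule genes picked from the list it was 1.32% for Mmp9, 1.98% for Mmp8, 9.56% for Lcn2 and 10.7% for Ltf. Camp stood at 12.4%, Pglyrp1 at 18.3% and Ngp at 31.9%. Outside these 7, the share was 1.14% for Olfm4, 2.23% for Prtn3 and 2.84% for Mpo. It was 32% for Hp, 75.9% for Lyz2 and 131% for Csf1r. For 5 of the genes of nonclassical monocytes named above it was 177% for Ace, 431% for Treml4, 450% for Adgre4, 491% for Nr4a1 and 782% for Cd36. Of these, Cd36 was highest in Erythroblast. An NK level above the Monocyte level was not particular to these genes. Other monocyte and macrophage markers also stood above Monocyte, at 469% for Adgre1, 329% for Cd68, 270% for C1qb and 208% for Mrc1. Some stood below it, such as Vcan at 31.9% and Cd5l at 57.8%. Cxcr2 was at 0.572% and Elane at 0.925%. The 7 granule genes stood lower in NK relative to Monocyte than these 5 genes of nonclassical monocytes did. Treml4, Adgre4 and Cd36 were intermediate and Nr4a1 was myeloid-low, classes that place NK above Monocyte by rule. The Monocyte arrays also held neutrophil genes, so nothing is read from this order.

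The NKT replicates also differed in such markers. The summed monocyte and macrophage list was 7316 and 13762 in NKT replicates 1 and 2, and the neutrophil list was 763 and 2999. C1qb, a complement gene of tissue macrophages, had 835 and 570.2 in NK, against 137 and 685 in NKT, and Mrc1, the mannose receptor, had 273 and 179 in NK, against 58.5 and 359.9 in NKT. Cd5l, a secreted protein of macrophages, had 67.3 and 52.3 in NK, against 93 and 496 in NKT, a log2 difference of -1.76 ± 0.59 (SE; adjusted p = 0.0497), with the excess in NKT replicate 2, and its call was lost without NK replicate 1, NK replicate 2 or NKT replicate 2 (adjusted p up to 0.594). Without NKT replicate 2, 28 monocyte and macrophage markers were higher in NK and none was higher in NKT. The counts of the 2 lists were 21 to 28 and 9 to 11 higher in NK over the fits that left out 1 array.

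Genes of antigen presentation were on the NK side too. Of 16 dendritic cell and MHC class II markers, 10 were higher in NK, 1 was higher in NKT, and the median log2 difference was 2.38. Cd74, the invariant chain, had 3732 and 2641 in NK, against 71.9 and 165 in NKT, a log2 difference of 4.76 ± 0.28 (SE; adjusted p = 9.42e-10), with 72.4 and 77.5 in Neutrophil and 1104 and 1086 in Monocyte. H2-Eb1, a class II β chain, had 6256 and 4548 in NK, against 109 and 281 in NKT, a log2 difference of 4.87 ± 0.42 (SE; adjusted p = 1.06e-07). The summed intensity was 20662 and 15086 in NK and 1116 and 1921 in NKT, beside 8311 and 6770.0 in Monocyte. It was highest in the B cell arrays, at 27665 and 24391. Batf3, a factor of conventional dendritic cells, had 159.5 and 82 in NK, against 5.29 and 31.6 in NKT, whereas Zbtb46 and Xcr1, also markers of those cells, were not called, at 29.8 and 41.9 in NK, against 34.9 and 58.9 in NKT and 12.4 and 3.41 in NK, against 29.5 and 15.8 in NKT. Their part in the result was not tested.

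B cell markers were dimmer, with 6 of 17 higher in NK, none called higher in NKT and a median log2 difference of 1.06. Ms4a1 (CD20) had 202 and 371 in NK, against 20.8 and 58.6 in NKT, a log2 difference of 2.73 ± 0.45 (SE; adjusted p = 0.000257), while Cd79a, at 30.6 and 53.1 in NK, against 26.9 and 30.6 in NKT, and Pax5, at 38.6 and 50 in NK, against 33.9 and 27.7 in NKT, were not called. The summed intensity was 6106 and 5674 in NK, 2719 and 3114 in NKT and 57550.3 and 50112 in the B cell arrays. Without 1 array between 1 and 6 markers were called, so the calls of this list were unstable. Among plasma cell markers 2 of 9 were higher in NK, one of them Jchain, with the excess in NK replicate 2 alone, at 15.3 and 506 in NK, against 1.96 and 15.8 in NKT, and a call lost without NK replicate 2 or NKT replicate 1 (adjusted p up to 0.612). Most erythroid, basophil, platelet and progenitor markers were dim. In that order 10 of 13, 9 of 9, 7 of 8 and 9 of 10 were under 100 in NK and NKT. This held for 6972 of all 14044 genes tested. None of these markers was called higher in NKT. Higher in NK were 1 of 13, 1 of 9, 2 of 8 and 3 of 10, against 6.73% of all genes tested. The first 2 of these counts are near that share. With 1 array left out these counts were 1 to 2, 0 to 1, 1 to 2 and 2 to 4. With limma's treat 1 erythroid marker and none of the other lists was called. The erythroid one was Car2, carbonic anhydrase 2, at 817 and 1156 in NK, against 77.8 and 108 in NKT, a log2 difference of 3.31 ± 0.38 (SE; adjusted p = 3.71e-06), while Klf1 and Gata1, which define erythroid cells, were not called. Their part in the result was not tested.

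**Figure D4:**
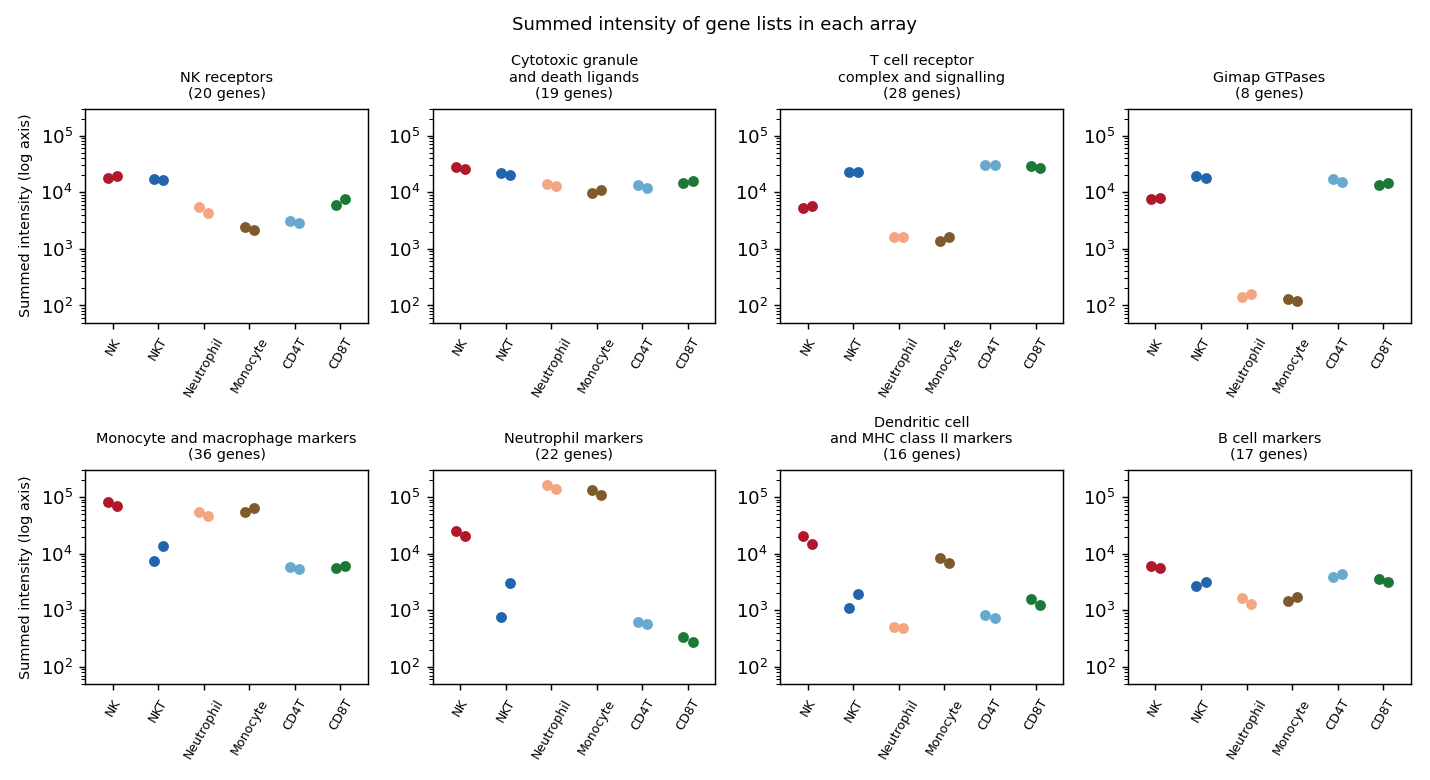
Summed intensity (log axis) of the tested genes of 8 lists in each of the 2 arrays of NK, NKT, Neutrophil, Monocyte, CD4T and CD8T, 1 point per array. The sums of the NK receptors are close in NK and NKT, where a few bright genes dominate them, the T cell receptor and Gimap lists are higher in NKT, and the monocyte, neutrophil and MHC class II lists are higher in NK, with NKT replicate 2 above NKT replicate 1 in these 3.

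Interferon-response genes called higher in NK were all myeloid-high, as were 71.9% of all genes called higher in NK. Of 19 tested, 9 were higher in NK and none was called higher in NKT, with a median log2 difference of 0.69. The count fell to between 2 and 8 with 1 array left out, with 5 without NKT replicate 2, and to 2 with limma's treat. Oasl2 had 342 and 186 in NK, against 19.8 and 9.34 in NKT, a log2 difference of 3.65 ± 0.40 (SE; adjusted p = 2e-06), with 932 and 560.2 in Neutrophil and 225 and 243 in Monocyte. Rsad2 (viperin) had 785 and 674 in NK, against 243 and 293 in NKT, a log2 difference of 1.42 ± 0.33 (SE; adjusted p = 0.00465), with 2565 and 1970.3 in Neutrophil and 697 and 554 in Monocyte. Its call was lost without NK replicate 1 or NKT replicate 1 (adjusted p up to 0.0548). NK replicate 1 was above NK replicate 2 for both. Ifit1, at 159 and 155 in NK, against 197 and 207 in NKT, and Xaf1, at 244 and 414 in NK, against 411 and 421 in NKT, were not called. Of 19 proliferation genes 1 was higher in NK, a share near the 6.73% of all genes tested. It was Aurkb, at 101 and 91.5 in NK, against 33.5 and 35.2 in NKT. Its call was lost without any 1 of the 4 arrays, with log2 differences from 1.258 to 1.387. Mki67, the Ki-67 antigen, was not called, at 473 and 587 in NK, against 421 and 197 in NKT.

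Genes higher in NKT were compared with the T cell arrays. For 575 of the 617 (93.2%) the higher of CD4T and CD8T was no more than 1 below the NKT mean on the log2 scale, a condition met by 97.8% of all genes tested, so nothing is read from that share. The remaining 42 genes (6.81%) stood above both T cell populations by more than that, and NKT was the highest of the 10 populations for 37 of them. The rule had already placed NKT above NK, CD4T and CD8T for these genes. Trgv4 and Csf2, given above, had the largest differences from NK in this set. Trgv1, another γ chain segment, chosen after its values were seen, had 249 and 229 in NK, against 1509.6 and 1408 in NKT, with 316 and 137 in CD4T and 128 and 298 in CD8T.

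Array quality moved with the groups to a small extent. The ratio of 3′ to 5′ Gapdh control probe sets was 3.73 and 3.47 in NK, against 4.5 and 4.65 in NKT, and the medians of the arrays were 22.1 and 23.3 in NK, against 24.3 and 26.5 in NKT. Replicates correlated at 0.972 in NK and 0.958 in NKT on the log2 scale across genes, which are not independent replicates. NK correlated with NKT at 0.869 to 0.886 with Monocyte at 0.836 to 0.868, with CD4T at 0.837 to 0.852, with CD8T at 0.828 to 0.849 and with B at 0.835 to 0.842. These ranges overlap for the last 4. NKT correlated with CD8T at 0.925 to 0.948 and with Monocyte at 0.737 to 0.761. The part of RNA quality in the differences was not tested.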

How the data were processed

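The deposited file holds 1 intensity for each probe set in each array, on a linear scale. Per the labels' protocols, total RNA was isolated with ISOGEN and amplified from 3000 cells in 2 cycles with 3′-directed labelling. The sources used here do not say how the authors corrected and scaled these intensities, or with which software. The 45101 probe sets hold 64 controls. By the platform annotation 34945 have 1 symbol, 932 have several and 9160 have none.

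The brightest probe set with 1 symbol stood for a gene (18193 genes). Genes whose highest population mean was above 4.89 on the log2(intensity + 6.75) scale (intensity 22.9) were tested, 14044 in all. The value added before the log lies at percentile 25 of the whole table. limma 3.58.1 in R 4.3.3 fitted 1 factor of 10 populations with a mean-variance trend (10 residual and 8.46 prior degrees of freedom). The fit was tested on simulated data. Groups and replicate numbers came from the sample titles. The labels do not say that a number is shared between populations, and the replicate deviations of NK and NKT correlated at 0.006, so the samples were treated as unpaired.

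Named were, among called genes whose NK and NKT arrays do not overlap, the 15 largest differences in each direction and the 12 largest myeloid-high and myeloid-low genes, and members of the 21 gene lists. Of 419 listed genes 365 were tested, 43 had no probe set of 1 symbol and 11 were below the filter. The members and lists were chosen with earlier results of these data known. Lists were described by counts and medians with no set test. Of 192 named or listed genes called, 74 had another probe set above the filter, 8 of them with the opposite sign, and 18 were read by a probe set whose name marks possible cross-hybridisation. Alternatives covered normalization, pseudocount, filter, probe set choice, arrays in the fit, trend, threshold, replicate block and each array left out.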

Additional observations from a re-analysis of the deposited data

How the results depend on the processing

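The counts moved with the settings, and more genes were higher in NK than in NKT in every alternative run. When 1 array was left out, the 945 genes higher in NK became 746 to 859 and the 617 higher in NKT became 394 to 490 (394 without NK replicate 1). The 679 genes also high in Neutrophil or Monocyte became 526 to 618, and the 575 also high in CD4T or CD8T became 369 to 464 (369 without NK replicate 1 and 379 without NKT replicate 2). Testing against a log2 difference of 1 with limma's treat gave 404 and 57 genes, of which 266 were also high in the myeloid arrays and 54 in the T cell arrays; this test asks for more than the call. A margin of 0 gave 447 and 326 of these. With the replicate number as a block 942 genes were higher in NK and 623 in NKT, and the block ended the call of Cd5l and of no other named gene. The remaining settings gave 849 to 1090 genes higher in NK and 457 to 676 higher in NKT, with 1090 and 457 under array median centring.

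Over the named genes and 17 settings, 2540 of the tested values kept direction and side of the threshold, 172 lost the call and 13 gained it. The gains were those of C1qb, Cd4, Gzmb, Mrc1 and Ncr1. Beside Il4ra and Plcg1, given next, of the genes that lost a call to a setting other than treat or a left-out array, Camk4, Iglv1 and Il10ra alone kept it in every fit that left out 1 array. The sign turned for Elane (0.054 under quantile normalization and 0.076 under median centring), and, over the median of the probe sets, for Il4ra (0.04), Lcp2 (-0.29), Plcg1 (0.58), Xaf1 (0.019) and Zap70 (-1.64). It also turned with 1 array left out, over which Elane ran from -0.374 to 0.272, Lcp2 from -0.033 to 0.122, Ifng from -0.891 to 0.031, Mrc1 from -0.686 to 1.804, Cd4 from -1.867 to 0.006, Eomes from -0.209 to 0.59, Vcan from 0 to 0.434 and Zbtb46 from -0.637 to 0.018. Of these Il4ra and Plcg1 alone had been called. The cause was not tested.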

Other observations

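The genes higher in NKT were also set against the myeloid arrays. By the rule used for NK, with the NKT mean in its place, 186 of the 617 (30.1%) were also high in Neutrophil or Monocyte, 2 were intermediate and 429 (69.5%) were myeloid-low. The level condition for also high was met by 86% of all genes tested, so nothing is read from the share of the NKT genes that met it. Among the 186 were Satb1, Hcst, Mmp9 and Il17rb. None of the 29 genes higher in NKT by at least 3 on the log2 scale was among them.

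NKT was the highest of the 10 populations for 176 of the 617 genes higher in NKT (28.5%, against 7.08% of all genes tested), CD4T for 115 and CD8T for 102. Of the 945 genes higher in NK, NK was the highest population for 316 (33.4%), Neutrophil for 309 (32.7%, against 14.7% of all genes tested), Erythroblast for 106, B for 77 and Monocyte for 43. A gene called higher in NK has NK above NKT by rule, and the reverse holds for NKT. Nothing is therefore read from the NK and NKT shares against all genes.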
